A study of Rattus norvegicus with 12 samples.

Results

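Splicing factor and RNA helicase genes were compared between dyskinetic and untreated parkinsonian rat striatum. Members were taken by gene symbol, with no measured value in the rule itself, though the rule was set with earlier results of these data known. It took every symbol that begins with Srsf, Hnrn, Celf, Rbm and a digit, Snrp, Lsm and a digit, Sf3, Prpf, Ddx or Dhx. Symbols with the older prefixes Sfrs and Hnrp were included, and Rbm3 was left out. This gave 115 genes, read by 118 probes, among 9218 genes with a symbol on 13375 probes. They fell into 10 families: 9 SR protein genes, 17 hnRNP genes, 6 CELF genes, 21 RBM genes, 4 Snrp genes, 10 LSm genes, 5 SF3 genes, 9 PRPF genes, 23 DDX genes and 11 DHX genes.

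The 12 samples were striatal RNA, each hybridised to its own one-colour Illumina array. The LID group held 6 samples from parkinsonian rats that had received chronic levodopa and were dyskinetic. Levodopa was given as L-DOPA methyl ester at 25 mg/kg together with benserazide at 6.25 mg/kg. The study's design text gives day 8 post chronic levodopa as the time of RNA extraction, with no separate day for controls. Benserazide blocks the conversion of levodopa outside the brain. The PD control group held 6 samples from rats that were also parkinsonian and got no levodopa. How the rats were made parkinsonian, and their hemisphere, strain, sex and age, are not stated in the labels. Since every levodopa-treated rat was dyskinetic, drug and dyskinesia cannot be told apart. The labels do not say whether each sample came from its own animal, so a p-value here reflects only how much these samples vary, and precision is limited by having 6 arrays a group.

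Most neuronal transcripts are spliced in alternative ways. SR proteins bind exons and recruit the splicing machinery, hnRNPs bind the same transcripts and often oppose it, and CELF and RBM proteins adjust the choice in particular tissues. The spliceosome itself is built from small nuclear ribonucleoproteins, whose RNAs carry rings of Sm or LSm proteins, with SF3 proteins at the branch point and PRPF proteins in the tri-snRNP and the active core. DEAD-box (DDX) and DEAH-box (DHX) helicases use ATP to open RNA duplexes, in splicing and also in ribosome assembly, translation and decay. The arrays measured the messenger RNA of these genes; splicing itself was not measured. In bulk tissue, fewer cells of a type and less RNA per cell cannot be told apart.

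The arrays showed small differences in a few genes, with at most 3 members of any family past the threshold. By limma, 11 of the 115 genes passed a Benjamini-Hochberg adjusted p of 0.05 over all probes, which is 9.57%, against 13.5% of all 9218 genes. Srsf6, Srsf10, Hnrnpa2b1, Hnrnph2, Hnrnpm, Rbm18 and Dhx36 rose in LID, 7 genes where 7.46% of all genes rose. Rbm11, Lsm3, Ddx25 and Ddx52 fell, 4 genes where 6.03% of all genes fell. Over all 13375 probes the share was 12.0%, with 6.47% higher and 5.54% lower. The members' share past the threshold was thus no larger than that of the whole table, and the same held at an unadjusted p under 0.05, with 27 of 115 members against 27.9% of all genes.

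The sizes were small as well. The median size of the difference, without its sign, was 0.064 log2 units over the 115 genes and 0.080 over all genes, and the signed medians were 0.0054 and -0.0013. Only 4 members were both past the threshold and changed at least 1.2-fold (3.48%, against 7.73% of all genes), and these were Hnrnpa2b1, Dhx36, Rbm11 and Ddx25. This count depends on the processing: Srsf10 lay just under the bound at 1.199-fold, and its log2 difference ran from 0.21 to 0.46 over alternative fits. The 95% interval of the difference lay inside 1.2-fold in either direction for 82 of 115 members (71.3%, and 62.0% of all genes) and inside 1.5-fold for 113. The exceptions to the wider bound were Hnrnpl and Hnrnpa3, whose spread is described further on. These sizes and intervals are on values with an offset of 50 added before the logarithm. The offset shrinks both for dim genes, so there the intervals do not bound the change in RNA.

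**Figure D1:**
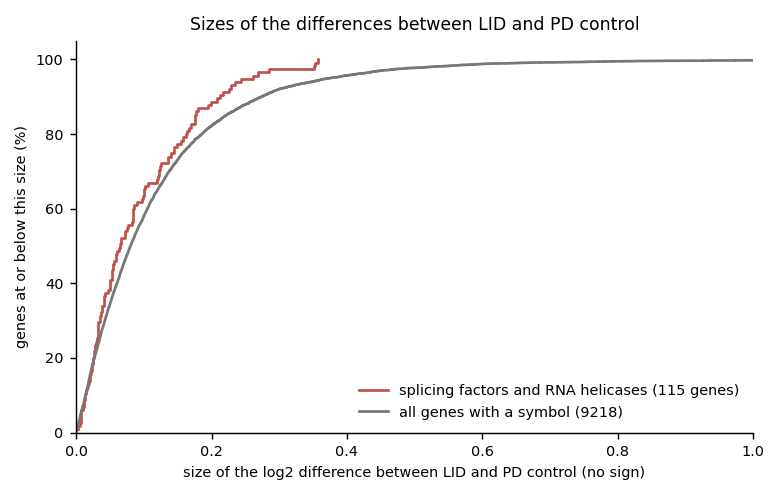
Cumulative share of genes (vertical axis, %) by the size of the log2 difference between LID and PD control without its sign (horizontal axis), for the 115 members (red) and all 9218 genes with a symbol (grey). The red line lies above the grey one over most of its length and ends at 0.36, the size in Ddx25, while the grey line runs on past the plotted range.

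Among SR protein genes, 2 of 9 rose and none fell. Srsf6, which binds exonic enhancers, had deposited intensities of 745 to 877 (median 792) in LID, against 631 to 735 (median 689) in PD control. The groups did not overlap, and the log2 difference was 0.23 ± 0.05 (SE, n = 6 per group, limma adjusted p = 0.016). Srsf10, which acts as a splicing repressor when it loses its phosphates, had 112 to 132 (median 121) in LID and 89.3 to 111 (median 101) in PD control. Here too the groups were apart, though the lowest LID array and the highest PD control array were close, and the difference was 0.26 ± 0.06 (adjusted p = 0.017).

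The other SR genes did not pass. Srsf5 pointed the other way, with 1416 to 1794 (median 1546) in LID and 1560 to 2126 (median 1762) in PD control, at -0.18 ± 0.08 (adjusted p = 0.16). Srsf2, a general SR protein, differed by -0.07 ± 0.05, with a 95% interval of -0.168 to 0.037. The remaining 5 genes, named to complete the family, Srsf3, Srsf7, Srsf9, Srsf11 and Srsf12, lay between -0.02 and 0.05, and the 2 probes of Srsf11 gave -0.02 and -0.06. The family's median was 0.017.

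Among hnRNP genes, 3 of 17 rose and none fell, with a family median of 0.033. Hnrnpa2b1, which takes part in splicing and in the transport of messenger RNA along neuronal and oligodendrocyte processes, had the largest rise of the 115 genes. Its intensities were 807, 916, 956, 896, 1029 and 843 in LID replicates 1 to 6, against 668, 642, 746, 818, 673 and 710 in PD control. All LID arrays but replicate 1 lay above the whole PD control group, in which replicate 4 was highest. The difference was 0.35 ± 0.07, a 1.28-fold rise (95% interval 0.204 to 0.502, adjusted p = 0.0054).

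Hnrnph2, which binds G-rich RNA, had 312 to 355 (median 320) in LID and 261 to 307 (median 292) in PD control, with no overlap and a difference of 0.18 ± 0.05 (adjusted p = 0.037). Hnrnpm, which binds GU-rich RNA, had 1421 to 1560 (median 1492) in LID and 1291 to 1445 (median 1333) in PD control. Here 4 of 6 LID arrays lay above all PD control arrays, at 0.15 ± 0.04 (adjusted p = 0.040). Both calls stood close to the threshold. That of Hnrnph2 was lost on leaving out any 1 of 7 arrays (LID 1, 3, 4 and 5, PD control 1, 2 and 6; adjusted p 0.056 to 0.082). That of Hnrnpm was lost on leaving out any 1 of 8 (LID 1, 2, 3 and 5, PD control 1, 2, 3 and 5; adjusted p 0.052 to 0.085).

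The close relatives of Hnrnph2 had positive values that did not pass: Hnrnph1 differed by 0.12 ± 0.05 (adjusted p = 0.11) and Hnrnph3 by 0.15 ± 0.06 (adjusted p = 0.16). Hnrnpul2 differed by 0.24 ± 0.08 (adjusted p = 0.058) and passed under 6 of 23 alternatives. These 3 genes were chosen after their values were seen. Hnrnpa1, the best studied hnRNP and a splicing repressor, differed by -0.03 ± 0.06, with 111 to 128 (median 116) in LID and 106 to 140 (median 118) in PD control. Hnrnpk, which binds C-rich sequences, differed by -0.05 ± 0.04, and Hnrnpu, a scaffold protein of the nucleus, by -0.01 ± 0.06, with intervals of -0.140 to 0.035 and -0.143 to 0.119.

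**Figure D2:**
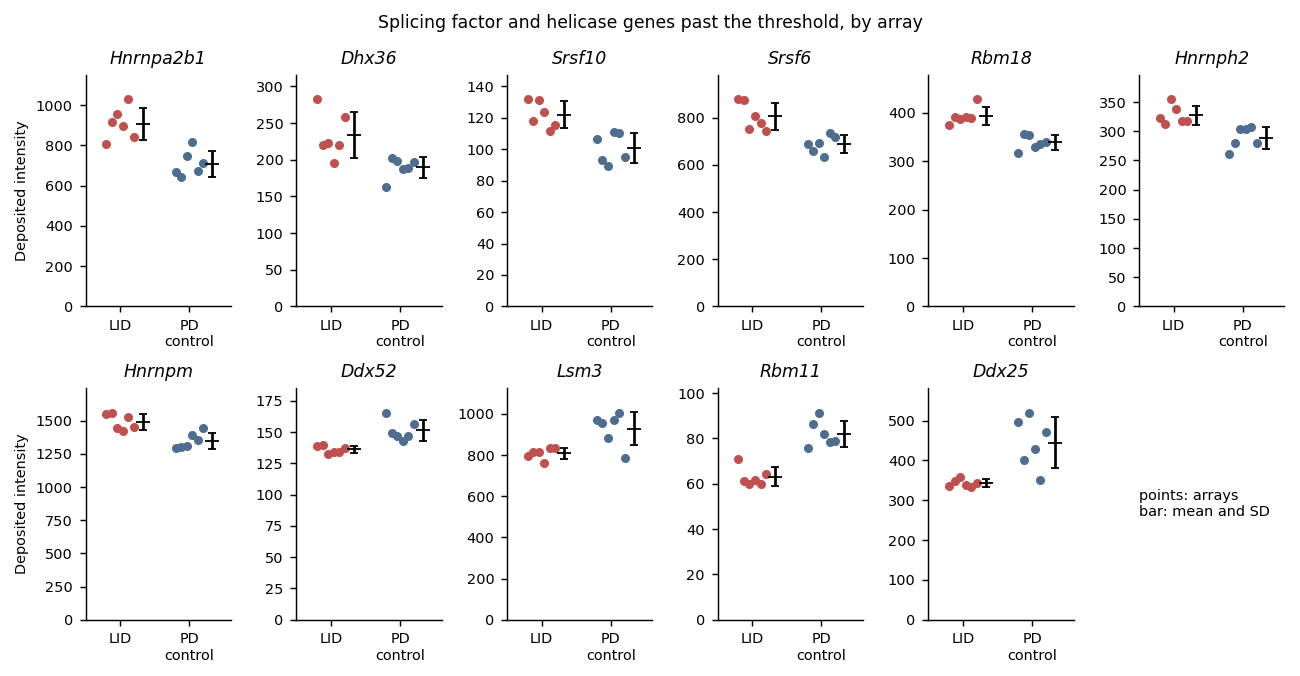
Deposited intensity (vertical axis, linear from 0) on each array for the 11 genes past the threshold, LID (red, 6 arrays) left of PD control (blue, 6 arrays), with the mean and SD of each group beside the points. Srsf6, Srsf10, Hnrnph2 and Rbm18 lie wholly higher in LID, Rbm11 and Ddx52 wholly lower, and the other 5 genes overlap; for Ddx25 the PD control arrays run from 350 to 520 and the LID arrays from 334 to 359.

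None of the 6 CELF genes passed. Celf2, which regulates alternative splicing in brain and muscle, had 481 to 548 (median 505) in LID and 358 to 535 (median 464) in PD control, at 0.17 ± 0.08 (adjusted p = 0.20), and it passed with cortical and choroid plexus scores in the fit (0.22, adjusted p = 0.027). Celf1 differed by 0.12 ± 0.06, and by 0.17 without LID replicate 6, where it passed (adjusted p = 0.041). Celf4, a mainly neuronal member, differed by -0.02 ± 0.08, with an interval of -0.194 to 0.155. To complete the family, Celf3, Celf5 and Celf6 were at -0.16, -0.08 and -0.07, with Celf3 past the threshold under 1 of 23 alternatives, so members lay on both sides of 0 and the family's median was -0.046.

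Of 21 RBM genes 1 rose and 1 fell, around a family median of 0.0054. Rbm11, a splicing regulator with restricted tissue expression, had the smallest p of the 115 genes. Its intensities were 71.0, 61.4, 59.8, 61.7, 60.1 and 64.2 in LID, against 75.8, 86.2, 91.4, 82.0, 78.2 and 78.7 in PD control. All LID arrays were below all PD control arrays, and the difference was -0.35 ± 0.05 (adjusted p = 0.0014). These values were close to the dim end of the arrays, whose lower quartile was 68.9. The size therefore depends on the offset of 50 added before the logarithm: with an offset of 1 the difference was -0.99.

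Rbm18, an RNA-binding protein, had 375 to 428 (median 391) in LID and 318 to 356 (median 338) in PD control. The groups did not overlap, and the difference was 0.21 ± 0.04 (adjusted p = 0.0060). Rbm5 and Rbm10, related regulators of alternative splicing, differed by -0.05 ± 0.07 and -0.0021 ± 0.0393, and Rbm39, a U2AF-related splicing factor and coactivator, by -0.09 ± 0.05. Among 19 genes that did not pass, Rbm46 (-0.16 ± 0.05, adjusted p = 0.079, chosen after its value was seen) had the lowest adjusted p and was dim, at 52.2 to 56.7 in LID and 54.7 to 71.4 in PD control.

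None of the 4 Snrp genes, of the core spliceosome, passed, and for all 4 the interval lay inside 1.2-fold. Snrpd1, named to complete the family, was dim, at 66.6 to 74.2 in LID and 64.3 to 74.3 in PD control. The offset narrows the interval of a dim gene, so that of Snrpd1 does not bound the change in its RNA. Snrpn, the imprinted Sm protein gene of neurons, had 15181 to 15808 (median 15332) in LID and 14969 to 17175 (median 15617) in PD control, a difference of -0.04 ± 0.04. Snrpa, protein A of the U1 particle, differed by -0.01 ± 0.05, and Snrpb2, its counterpart in the U2 particle, by -0.12 ± 0.06. None of 5 SF3 genes passed: Sf3b1, which contacts the branch point, differed by -0.08 ± 0.06, Sf3b3 by 0.10 ± 0.05 and Sf3a1 by 0.20 ± 0.08. Sf3a1 had 184 to 224 (median 198) in LID and 144 to 205 (median 174) in PD control, and leaving out PD control replicate 3 took it past the threshold (0.25, adjusted p = 0.040), as it was under 2 other alternatives.

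None of 9 PRPF genes passed either. Prpf8, the protein at the heart of the spliceosome, had 170 to 177 (median 172) in LID and 165 to 189 (median 181) in PD control, at -0.05 ± 0.04. Prpf4, of the tri-snRNP, differed by -0.05 ± 0.04, and Prpf19, the ubiquitin ligase of the complex named after it, by 0.18 ± 0.14, a wide error that left an interval of -0.117 to 0.469.

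Of 10 LSm genes 1 fell. Lsm3, a member of the rings that bind U6 RNA in the nucleus and decaying messages in the cytoplasm, had 760 to 834 (median 814) in LID and 784 to 1006 (median 964) in PD control. The LID arrays lay within a narrow band, and PD control replicate 6, the lowest of its group, fell inside it. The difference was -0.19 ± 0.06 (adjusted p = 0.044), and the call was lost in 10 of 12 fits with 1 array left out (all 6 LID arrays and PD control 1, 2, 4 and 5; adjusted p 0.056 to 0.100). Lsm5 and Lsm8, which sit in the nuclear ring with Lsm3, were at -0.21 ± 0.07 (adjusted p = 0.057) and -0.12 ± 0.05 (adjusted p = 0.15), chosen after their values were seen, and Lsm5 passed under 5 of 23 alternatives. Lsm10, also chosen after its value was seen, lay on the other side of 0, at 0.18 ± 0.09 (adjusted p = 0.24), with 0.12 on its dimmer probe. Lsm4 (-0.10 ± 0.06) and Lsm12 (0.03 ± 0.03) did not pass, and 7 of 10 values were below 0, with a median of -0.057, or -0.048 to -0.075 with 1 array left out.

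Of 23 DDX helicase genes, 2 fell and none rose, with a family median of 0.023. Ddx25, known in rodents as the gonadotropin-regulated helicase of the testis, had the largest fall of the 115 genes. Its intensities were 335, 349, 359, 338, 334 and 344 in LID, against 498, 400.5, 520, 428, 350 and 471 in PD control. LID arrays stayed within a narrow range, while PD control arrays spread widely, with replicates 1, 3 and 6 highest. The difference was -0.36 ± 0.08 (adjusted p = 0.012), and without those 3 arrays it was -0.19 (adjusted p = 0.089).

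Ddx52, whose yeast homologue acts in ribosome assembly, had 132 to 140 (median 136) in LID and 143 to 165 (median 148) in PD control. The groups did not overlap, although the gap was small, and the difference was -0.14 ± 0.04 (adjusted p = 0.035). This call was lost on leaving out any 1 of 7 arrays (LID 3, 4, 5 and 6, PD control 1, 2 and 6; adjusted p 0.051 to 0.076). The paired coregulators Ddx5 and Ddx17, which unwind RNA during splicing and microRNA processing, differed by 0.06 ± 0.05 and 0.22 ± 0.10 (adjusted p = 0.49 and 0.17). Ddx3x, a translation helicase, differed by -0.03 ± 0.04, and Ddx6, which represses translation and promotes decapping, by -0.23 ± 0.15, with an interval of -0.556 to 0.098.

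Of 11 DHX genes 1 rose. Dhx36, which unwinds G-quadruplexes, had 282, 220, 223, 195, 220 and 258 in LID, against 163, 203, 199, 188, 189 and 197 in PD control. LID replicates 1 and 6 were highest and PD control replicate 1 lowest, so that 5 of 6 LID arrays were above all controls. The difference was 0.29 ± 0.08 (adjusted p = 0.038), and it was not past the threshold when any 1 of 8 arrays was left out (LID 1, 3, 5 and 6, PD control 1, 4, 5 and 6; adjusted p 0.052 to 0.075). Dhx9, RNA helicase A, differed by 0.03 ± 0.06 and Dhx30, a helicase of mitochondrial RNA, by -0.02 ± 0.05. The family's median was -0.0075.

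**Figure D3:**
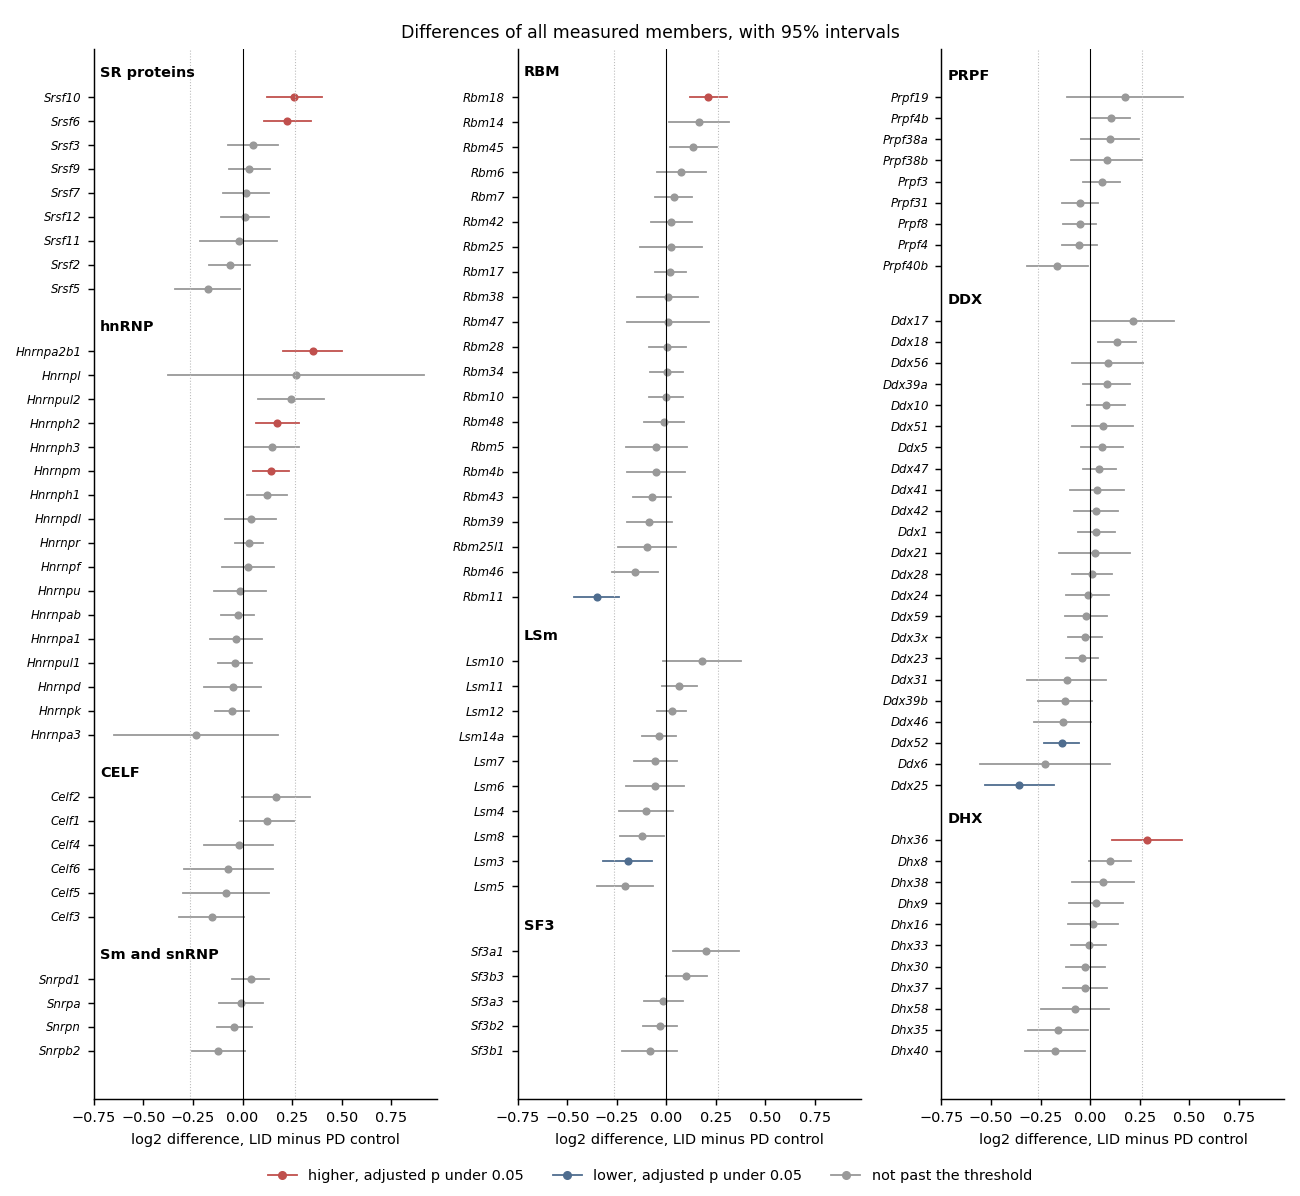
Log2 difference, LID minus PD control (horizontal axis), with its 95% interval for all 115 members by family; red marks genes that rose, blue genes that fell, grey those not past the threshold, and dotted lines mark 1.2-fold. Each family straddles 0; Hnrnpl has the widest interval, from -0.375 to 0.913.

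The arrays were close in their median over members but not in their spread. The SD of members' deviations from their group means was 0.144, 0.135 and 0.152 on PD control replicates 1, 3 and 6. On the other arrays it was 0.088 to 0.121. The median over members of the log2 value minus the PD control mean ran from -0.019 to 0.030 on LID arrays and from -0.029 to 0.021 on PD control arrays. Groups did not overlap at 6 members (5.22%, against 6.93% of all genes): 4 lay wholly higher in LID, where 3.89% of all genes did, and 2 wholly lower, where 3.04% did. Within groups the median SD was 0.086 in LID and 0.093 in PD control, and 72 of 115 members (62.6%) varied more in PD control, as did 62.1% of all genes.

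A few members varied far more than they differed between groups. Hnrnpl, which binds CA repeats, had 1654, 3183, 3285, 1842, 1963 and 1631 in LID and 2957, 1190, 1432, 1348, 1300.5 and 3752 in PD control. LID replicates 2 and 3 and PD control replicates 1 and 6 were high and the other 8 arrays lay apart from them, in both groups alike, so the difference of 0.27 ± 0.30 was within the spread. Hnrnpa3 ranged from 1472 to 2775 in LID and from 1503 to 3023 in PD control, at -0.23 ± 0.19. Ddx6 had 1061 to 1636 (median 1403) in LID and 1260 to 2428 (median 1490) in PD control, where replicate 3 was highest. These genes and Prpf19 had the largest within-group SDs of the 115, at 0.59 for Hnrnpl, 0.38 for Hnrnpa3, 0.30 for Ddx6 and 0.27 for Prpf19; Hnrnpl and Hnrnpa3 were chosen after their values were seen.

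**Figure D4:**
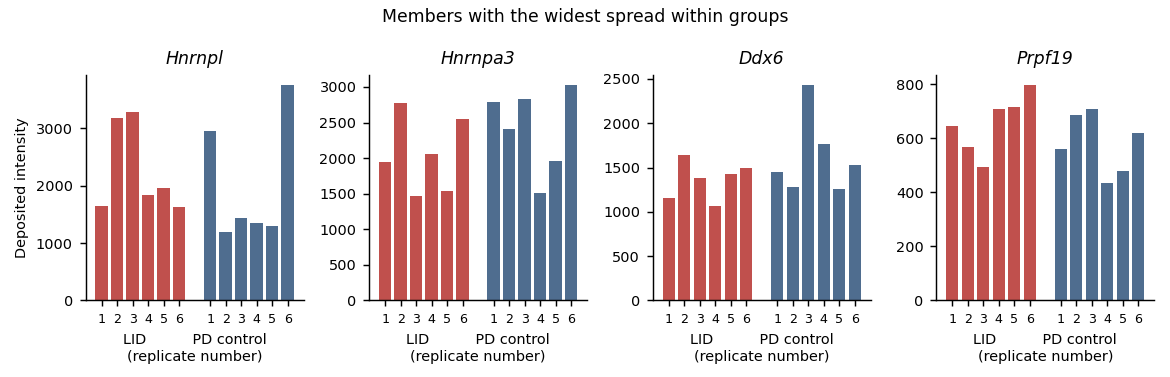
Deposited intensity (vertical axis, linear from 0) of the 4 members with the widest within-group spread, a bar for each of 6 LID arrays (red) and 6 PD control arrays (blue) by replicate number. Hnrnpl shows 2 high arrays in each group, from 2957 to 3752, against 1190 to 1963 on the other arrays.

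Marker lists were read to describe the tissue, and some of their genes can differ in RNA per cell. For comparison, 7.46% of all genes were higher in LID and 6.03% lower. Of 25 measured markers of striatal projection neurons 8 were higher in LID and none lower, and their summed intensity was 72282 to 90667 in LID and 59736 to 86944 in PD control. Differences were positive for 22 of the 25, with a median of 0.21 and a largest value of 1.90 log2 units. Ppp1r1b, the striatal DARPP-32 gene, was bright on every array (8381 to 11528 in LID, 7169 to 11166 in PD control). It differed by 0.07 ± 0.11 and did not pass. Adora2a (0.01 ± 0.13), Rgs9 (-0.02 ± 0.11), Pde10a (0.05 ± 0.14), Penk (0.15 ± 0.11) and Drd2 (0.13 ± 0.11) did not pass either. Drd1 rose by 0.57 ± 0.11 (limma adjusted p = 0.0047). These markers were named after their values were seen. Astrocyte markers had 5 of 12 higher and none lower (summed 33539 to 40890 in LID, 30253 to 36296 in PD control), and oligodendrocyte markers 3 of 17 lower and none higher (28450 to 42022 in LID, 26211 to 46713 in PD control). Of 14 cortical excitatory markers 2 were higher and 1 lower (30118 to 36095 in LID, 26304 to 37544 in PD control), though 12 of the 14 had negative differences, with a median of -0.11. No choroid plexus or ependymal marker of 21 passed (3453 to 23340 in LID, 2956 to 34810 in PD control). Of 12 microglial markers 1 was lower (6209 to 8050 in LID, 6653 to 8303 in PD control), and endothelial and mural markers had 2 higher and 2 lower of 10 (2567 to 2932 in LID, 2712 to 3415 in PD control). The lowest deposited value on any array was 36.5, so no marker stood at 0, and Slc17a7, which defines cortical excitatory neurons, had 74.1 to 148 in LID and 66.1 to 354 in PD control. The part of astrocyte, neuronal, oligodendrocyte, microglial and vascular content in the differences was not tested.

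PD control replicates 3 and 6 had the highest cortical marker scores (1.33 and 0.98 SD units, others at most 0.47) and replicate 1 the highest choroid plexus score (1.90, others at most 0.93). The same 3 arrays had the lowest striatal projection neuron scores (-1.23 for replicate 1, -1.07 for replicate 3 and -0.92 for replicate 6, others at least -0.31), and replicates 3 and 6 the lowest astrocyte scores (-1.16 and -1.09, others at least -0.56). Without these 3 arrays, 4 members passed, 3.48% against 8.85% of all genes, and these 4 were among the 11: Hnrnpa2b1 (0.35), Rbm18 (0.21), Rbm11 (-0.36) and Lsm3 (-0.27). Srsf6 (0.25, adjusted p = 0.057) and Srsf10 (0.21, adjusted p = 0.11) did not pass there. With cortical and choroid plexus scores in the fit and all arrays kept, 14 members passed (12.2%, against 16.2% of all genes), of which 9 were among the 11, and Ddx25 was at -0.29 (adjusted p = 0.011). Leaving out a single array gave 6 to 13 calls among the members, while 857 to 1195 of all 9218 genes passed; the count was 6 without LID replicate 3 and without LID replicate 5. The count of genes that fell was 2 without LID replicate 3, 4, 5 or 6 or PD control replicate 2, and the count that rose was 4 without LID replicate 3 or 5. Hnrnpa2b1 and Rbm18 passed under all 23 alternatives, Ddx25 under 22 and Srsf6 under 21 of them. Rbm11 and Srsf10 were not among the brighter probes that 1 alternative kept, and passed under 22 and 21 of the other 22.

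**Figure D5:**
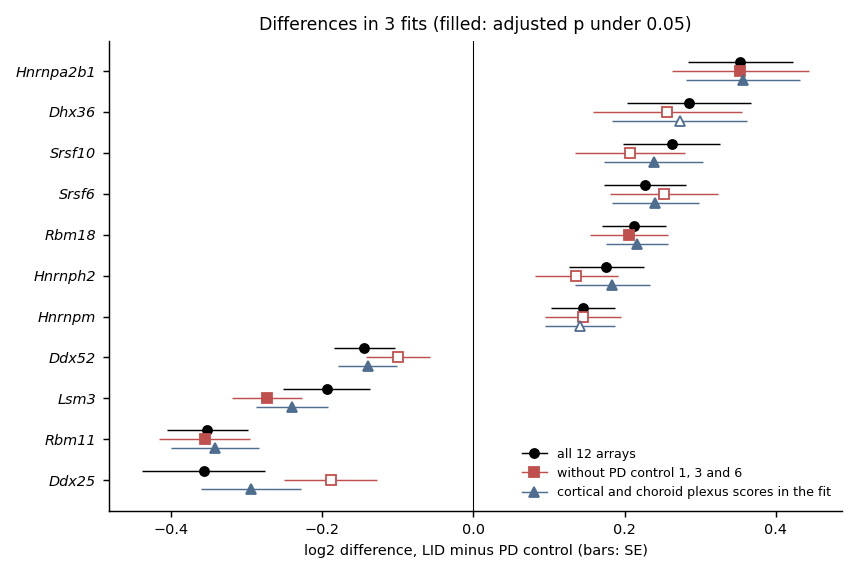
Log2 difference, LID minus PD control (horizontal axis, bars are SE), of the 11 genes in 3 fits: all 12 arrays (black circles), without PD control replicates 1, 3 and 6 (red squares), and with both marker scores in the model (blue triangles). Filled symbols are past the threshold; Ddx25 moves from -0.36 with all arrays to -0.19 without the 3 control arrays, and Hnrnpa2b1 stays between 0.35 and 0.36.

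Regulators outside these families were taken from lists of related genes. Of 107 measured, 7 rose and 3 fell, 9.35% of the list beside 13.5% of all genes, with a median of 0.0049. Luc7l, related to a yeast protein of the U1 particle, rose most: it had 311 to 394 (median 382) in LID and 240 to 291 (median 255) in PD control, with no overlap, a 1.40-fold rise (0.49 ± 0.07, adjusted p = 0.00062). Elavl1, the ubiquitous HuR protein that stabilises messages, rose by 0.30 ± 0.07, Rbfox2, an exon regulator, by 0.19 ± 0.06, and Tardbp, which encodes TDP-43, by 0.17 ± 0.05. These were the 4 of 40 further splicing regulators that passed, and none fell. Elavl1 and Rbfox2 were dim enough that an offset of 1 gave 0.45 and 0.33, where Rbfox2 did not pass (adjusted p = 0.061), and without the 3 control arrays Elavl1 did not pass (0.24, adjusted p = 0.066).

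Of 8 measured genes of a list of SR protein kinases and partners, Clk4 rose (0.23 ± 0.07). Of 44 other core and assembly factors, Usp39 (0.23 ± 0.07) and Snw1 (0.20 ± 0.05) rose, while Syf2 (-0.34 ± 0.09), U2af1l4 (-0.21 ± 0.05) and Slu7 (-0.20 ± 0.05) fell. None of 15 other helicases and decay factors passed, with 95% intervals inside 1.2-fold for 14. Of these 15 genes 4 were dim (mean log2 under 6.5), and the offset narrows the intervals of such genes. With 1 array left out, the call was lost for Rbfox2 in 9 fits (LID 2, 3, 4 and 5, PD control 1, 2, 4, 5 and 6), for Tardbp in 8 (LID 1, 2, 4, 5 and 6, PD control 2, 3 and 5) and for Clk4 in 7 (LID 1, 4, 5 and 6, PD control 1, 2 and 4). It was lost for Usp39 in 10 (LID 2 to 6, PD control 1, 3, 4, 5 and 6) and for Syf2 without LID 5. The adjusted p in these fits was 0.052 to 0.109. Without PD control replicates 1, 3 and 6, Usp39 (0.19, adjusted p = 0.19), Snw1 (0.16, adjusted p = 0.12), Slu7 (-0.16, adjusted p = 0.14), Clk4 (0.25, adjusted p = 0.097) and Rbfox2 (0.21, adjusted p = 0.082) did not pass.

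Promoter windows are shown for 4 genes past the threshold with 1 window each, which show the letters that were counted: Hnrnpa2b1, Rbm18 and Srsf6, which rose, and Ddx25, which fell. All 4 passed under at least 21 of 23 alternatives. Each is the 250 bases before the RefSeq start in GRCr8, on the strand of the gene: Hnrnpa2b1 at chr4:81875887-81876136 (minus strand), Rbm18 at chr3:39884578-39884827 (minus strand), Srsf6 at chr3:172008822-172009071 (plus strand) and Ddx25 at chr8:42168081-42168330 (minus strand). Capitals mark CCAAT, the CCAAT box, and TGACG, the half-site of the cyclic AMP response element, on either strand. In Rbm18 the half-site farthest from the start abuts its neighbour, and the nearer ones overlap each other. Hnrnpa2b1 and Ddx25 each hold 1 CCAAT, Hnrnpa2b1 and Srsf6 each hold 1 TGACG, and Rbm18 holds 3.
Hnrnpa2b1: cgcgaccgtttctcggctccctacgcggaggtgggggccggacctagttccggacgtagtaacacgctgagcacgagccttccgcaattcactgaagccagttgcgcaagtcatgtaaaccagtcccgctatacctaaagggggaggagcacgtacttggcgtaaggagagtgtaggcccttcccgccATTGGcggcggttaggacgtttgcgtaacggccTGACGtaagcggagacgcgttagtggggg
Rbm18: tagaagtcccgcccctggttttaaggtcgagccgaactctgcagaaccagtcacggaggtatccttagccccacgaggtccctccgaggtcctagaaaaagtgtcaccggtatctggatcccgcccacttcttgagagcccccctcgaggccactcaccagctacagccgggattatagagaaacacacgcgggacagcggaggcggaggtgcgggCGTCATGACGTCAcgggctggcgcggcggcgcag
Srsf6: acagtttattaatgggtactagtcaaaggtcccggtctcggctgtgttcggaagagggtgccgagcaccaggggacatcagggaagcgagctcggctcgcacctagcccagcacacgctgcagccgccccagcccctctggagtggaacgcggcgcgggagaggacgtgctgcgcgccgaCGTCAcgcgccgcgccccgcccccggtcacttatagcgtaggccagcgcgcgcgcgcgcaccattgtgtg
Ddx25: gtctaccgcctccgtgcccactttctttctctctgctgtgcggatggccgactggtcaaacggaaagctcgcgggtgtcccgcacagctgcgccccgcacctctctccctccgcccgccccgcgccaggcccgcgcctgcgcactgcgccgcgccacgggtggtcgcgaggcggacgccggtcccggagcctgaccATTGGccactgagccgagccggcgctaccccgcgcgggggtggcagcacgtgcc

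Windows of 250 bases were read for 106 of the 115 genes, some with several starts, 114 in all. The comparison set was 33469 windows of 27457 RefSeq genes, not only the 9218 measured genes. On either strand TGACG stood in 48 member windows (42.1%), against 18.2% of the comparison windows, and CCAAT in 51 (44.7%, against 34.0%). GGGCGG, the GC box, stood in 53.5% of member windows (30.5% of all), CACGTG in 11.4% (5.59%), CCGGAAG in 24.6% (7.27%) and TATAAA in 6.14% (12.9%). Member windows held a median of 19 CpG dinucleotides and 58.8% GC, against 5 and 51.2% over all windows, and most of the motifs searched contain CpG or are GC-rich. Among the 9 genes past the threshold that have a window, TGACG stood in 6 (Dhx36, Hnrnpa2b1, Hnrnph2, Rbm18, Srsf6 and Srsf10) and CCAAT in 5 (Ddx25, Hnrnpa2b1, Hnrnph2, Hnrnpm and Srsf10). In the same 9 genes GGGCGG stood in 7, CACGTG in 3, CCGGAAG in 1 and TATAAA in 1. Counted by gene, TGACG stood in 45 of 106 members and in 20.0% of the comparison genes. The same counts were 46 and 36.1% for CCAAT, 58 and 33.5% for GGGCGG, and 13 and 6.18% for CACGTG. They were 25 and 8.11% for CCGGAAG, and 7 and 14.1% for TATAAA. The core of the NRF1 site was also searched: it stood in 2.63% of member windows and 0.762% of all, and in 0 of the 9 genes. The searches describe letters in these windows only.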

How the data were processed

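Messenger RNA was measured in 12 striatal samples. The authors deposited linear intensities, from 36.5 to 22793; maxima coincide and quartiles nearly so on all 12 arrays, as after quantile normalisation. No label names the software, background correction or probe filter.

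From these, values were corrected with normexp (offset 50), quantile normalised and taken as log2 in limma 3.58.1 (R 4.3.3), and each of 13375 probes was tested with lmFit and eBayes, group as the only term, two-sided, adjusted by Benjamini-Hochberg, threshold 0.05. Intensities in the text are the deposited ones. Differences are on log2 of corrected values that hold the offset, and they understate the change of dim genes. These include 17 of the 115 members (mean log2 under 6.5). Genes above that bound can be understated too: Elavl1, with means of 7.32 in LID and 7.02 in PD control, differed by 0.30, and by 0.45 with an offset of 1. The brightest probe stood for a gene; 3 members had 2 probes, none of which passed. Names came from GEO's platform annotation, and all 115 members matched RefSeq by gene identifier with 0 changed symbols. The array's build is not given.

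The members, lists and alternatives were chosen with earlier results of these data known. The rule for naming took all members past the threshold, the brightest of each family, 22 fixed genes (3 of them not analysed here), up to 5 called genes of each related list and the largest difference of a family with no call: 49 genes. The report marks any other gene as picked with its values in view or given to complete a family. Lists are described by counts and medians, with no list test. Marker scores are means of values standardised over arrays. The fit was tested on simulated data with known changes in 200 of 13375 probes. It recovered 26.6% of changes of 0.2 log2 units, 79.7% of those of 0.4 and 96.8% of those of 0.8, and 4.66% of its calls were false. Changes of 0.2 were thus mostly missed in the simulation, so a gene that did not pass may still differ by such a size. No arrays held identical values. Alternatives changed the offset, the normalisation, the filter on dim probes, the choice of probe, the moderation and array weights, added marker scores or the replicate number to the fit, or left out arrays.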

Additional observations from a re-analysis of the deposited data

Results flagged for a closer look

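Of 98 groups of 6 arrays (49 named genes in each condition), 7 had an array apart from its group, where chance alone gives about 5% of groups. Rbm18 was 428 on LID replicate 6 (others 375 to 392), and Dhx36 was 163 on PD control replicate 1 (others 188 to 203). Dhx30 was 956 on PD control replicate 3 (others 816 to 851), and Sf3b1 was 582 on the same array (others 448 to 492). Hnrnpa1 was 128 on LID replicate 5 (others 111 to 117), Celf1 was 365 on LID replicate 6 (others 435 to 468), and U2af1l4 was 853 on LID replicate 3 (others 796 to 811). All are deposited intensities.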

How the results depend on the processing

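No named gene that passed changed sign under the 21 to 23 alternatives in which it had a value. Without PD control replicates 1, 3 and 6 the calls were 1059 over all probes and 4 over members, 2 higher and 2 lower, with medians of 0.0082 for PRPF and -0.017 for DDX; this fit has fewer arrays. With an offset of 1, 4 members rose. The median of DDX was -0.0075 with array weights, and that of hnRNP was 0.12 among the brighter probes, where fewer genes are kept. With 1 array left out, members called ran from 6 to 13, higher from 4 to 8, lower from 2 to 5 and all probes from 1112 to 1557. In the same fits the medians of CELF (-0.093 to 0.0040), RBM (-0.018 to 0.017), SF3 (-0.026 to 0.0038), DHX (-0.023 to 0.013) and all members (-0.0048 to 0.011) took both signs. The labels give both groups replicate numbers 1 to 6 without saying that a number marks anything shared: deviations of same-numbered samples correlated at -0.29 to 0.48, and 2 of 6 LID samples correlated best with their own number. With the replicate number as a block 7 members passed, 5 higher and 2 lower (6.09%, against 11.0% of all genes), and U2af1l4, Clk4 and Rbfox2 did not (adjusted p 0.059, 0.072 and 0.055). Usp39 was also lost with an offset of 1, array weights or a robust trend (adjusted p 0.064, 0.058 and 0.0501), and Clk4 with an offset of 1 (0.071). The causes were not tested. Genes near the dim end could show little change at this signal.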
